A study of Mus musculus with 2 samples.

Results

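The coat genes of lipid droplets were compared between mice lacking PKGI (KO) and wild type mice (WT). They comprise the 5 perilipins Plin1, Plin2, Plin3, Plin4 and Plin5 and the CIDE genes Cidea and Cidec. Members were found by their gene name or its older alias on the array, where Plin1 stands as Plin, Plin2 as Adfp, Plin3 as M6prbp1, Plin4 as S3-12 and Plin5 as 2310076L09Rik. That gave 7 genes of the 19505 named on the array, each with 1 probe, spotted once, of 41174 gene probes. The rule itself uses names and no measured value, although the family was picked with earlier results of these data known.

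The study consists of 2 two-colour Agilent arrays. The BAT array set brown adipose tissue, a fat that burns lipid for heat, from 1 untreated PKGI-/- mouse (Cy5) against that of its WT littermate (Cy3). The adipocyte array set brown fat cells grown and matured in vitro from precursors of PKGI-/- origin (Cy3) against cells of a WT littermate (Cy5). All animals were of the C57BL/6N background, and neither age nor the part of the gene that was deleted is given in the sources used here. PKGI, encoded by Prkg1, is the protein kinase that is activated by cGMP. There was 1 array per comparison and no array with the dyes swapped, so no test between genotypes was possible, and the values describe these RNA samples. Log2 ratios are KO over WT, and genes were counted when the ratio was at least 2-fold.

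A lipid droplet is a core of triglyceride under a single layer of phospholipid, into which coat proteins insert. Perilipins control which lipases reach the core, and protein kinase A frees the lipolytic machinery by phosphorylating PLIN1. In human fat cells natriuretic peptides start lipolysis through cGMP and PKGI. CIDE proteins gather where droplets touch and pass lipid from the smaller to the larger one, so that droplets grow. In brown fat the coat therefore bears on the many small droplets that feed heat production.

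For the members that differed most between KO and WT cultures, and for Plin3, which stayed under 2-fold, the 250 bases before the transcript start are shown to give the DNA beside which these transcripts begin. They are from RefSeq on GRCm38.p6, all on the minus strand and written 5′ to 3′. Windows matched by symbol were kept for 6 members, and none was used for Cidea. Where a gene had 2 starts the outermost is shown. Capitals mark matches on either strand to AGGTCA (a nuclear receptor element), AGGTCANAGGTCA (its direct repeat), CCAAT (the CCAAT box), CACGTG (the E-box) or TATAAA (the TATA box).
Cidec, chr6:113435761-113436010: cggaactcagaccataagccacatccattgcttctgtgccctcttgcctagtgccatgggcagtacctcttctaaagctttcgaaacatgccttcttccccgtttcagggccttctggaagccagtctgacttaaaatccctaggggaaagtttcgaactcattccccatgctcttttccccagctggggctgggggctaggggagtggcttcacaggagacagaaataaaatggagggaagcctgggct
Plin4, chr17:56109783-56110032: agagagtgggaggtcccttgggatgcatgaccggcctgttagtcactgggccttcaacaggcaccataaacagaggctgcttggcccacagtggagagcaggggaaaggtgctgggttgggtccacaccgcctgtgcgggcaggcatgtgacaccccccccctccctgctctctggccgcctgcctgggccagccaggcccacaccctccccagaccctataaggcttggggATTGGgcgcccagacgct
Plin1, chr7:79732777-79733026: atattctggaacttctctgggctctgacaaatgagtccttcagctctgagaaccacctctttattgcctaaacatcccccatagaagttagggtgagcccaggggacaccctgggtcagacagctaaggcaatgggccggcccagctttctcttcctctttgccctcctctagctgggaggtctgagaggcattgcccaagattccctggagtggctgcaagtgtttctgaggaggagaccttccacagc
Plin5, chr17:56117549-56117798: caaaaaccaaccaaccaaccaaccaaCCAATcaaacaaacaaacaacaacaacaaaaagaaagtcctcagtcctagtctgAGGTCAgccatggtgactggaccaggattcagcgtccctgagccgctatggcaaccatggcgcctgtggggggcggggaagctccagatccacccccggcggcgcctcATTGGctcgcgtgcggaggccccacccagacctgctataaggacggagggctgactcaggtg
Plin3, chr17:56290512-56290761: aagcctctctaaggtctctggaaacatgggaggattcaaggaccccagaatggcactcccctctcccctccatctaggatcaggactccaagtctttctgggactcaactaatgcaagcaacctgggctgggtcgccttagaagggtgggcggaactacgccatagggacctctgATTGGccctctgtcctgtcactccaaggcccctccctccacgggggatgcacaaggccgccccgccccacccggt

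In these 5 windows the only matches were CCAAT and AGGTCA, and neither motif overlapped the other. Plin4 held CCAAT on the other strand 18 bases before its start, and Plin3 held it 75 bases before its start. Plin5 held CCAAT 224 and, on the other strand, 62 bases before its start, and AGGTCA 170 bases before it. The windows of Cidec and Plin1 held none of the 5 motifs. The window of Plin2, not shown, held AGGTCA on the other strand 218 bases before its start and CCAAT 73 bases before it. Over all 32851 RefSeq windows of the same length, 33.8% held CCAAT, 14% AGGTCA, 12.4% TATAAA, 6.02% CACGTG and 0.0335% the direct repeat. These matches describe letters only.

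Prkg1 was read first as a check of the labels. Of its 4 probes, 2 were well above background in both channels. These had log2 ratios of -1.29 and -1.22 on the BAT array and -0.94 and -2.31 on the adipocyte array, lower in KO on both. The others, not well above background in WT, had -0.07 and 0.01 on the BAT array and -0.07 and 0.17 on the adipocyte array. On the BAT array the Y-linked gene Eif2s3y had -6.40 and Xist, which silences an X chromosome, 4.41, and on the adipocyte array Eif2s3y had -0.12 and Xist -3.36. KO and WT thus differed in sex-linked transcripts in tissue and, for Xist, in cultures, and the part of this in the results was not tested. All 7 member probes were well above background in both channels of both arrays and none was saturated. Repeated spots of 1 probe scattered with an SD of 0.11 log2 units in tissue (194 probes) and 0.09 in cultures (201 probes). The error given for a member is that of Feature Extraction for the log ratio of a single spot, converted to log2. It covers spot and scan, not animals. It belongs to Feature Extraction's own ratio, which can differ from the ratio printed beside it, as for Cidec in tissue (0.41 against 0.64). The combined errors below are built from it too.

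In KO cultures 6 of the 7 coat genes were at least 2-fold lower than in WT cultures, and Plin3 was the exception. The 3 lowest were Cidec, Plin4 and Plin1, at 2.25%, 3.99% and 4.81% of WT. Cidea and Plin5, which are typical of brown fat, were at 9.58% and 16.7% of WT, and Plin2, which is made in most cells that store lipid, at 46.9%. No member was higher in KO cultures. In KO tissue the same genes were spread around equality, with Plin5 (-1.04) just past 2-fold lower, Cidea (1.01) just past 2-fold higher and the other 5 between. Neither tissue call held throughout, since Cidea had 0.93 with offset 0 and 0.71 with Feature Extraction's ratios, and Plin5 had -0.33 without loess.

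Of the 7 members 6 were at least 2-fold lower in KO cultures and 0 higher, where the background over 15119 genes was 4.17% lower and 2.49% higher. The members' median log2 ratio was -3.38, and that of all genes was 0.00. Members ran from -5.48 to -0.28.

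Cidec, also called Fsp27, promotes the large droplets of mature fat cells. Its normalized intensity was 474 in KO cultures and 21121 in WT cultures, a log2 ratio of -5.48 ± 0.57. The KO channel was dim and the WT channel bright, and only 2 of the 15119 genes had a lower ratio. Plin4, a perilipin that coats newly forming droplets in fat cells, had 256 in KO cultures and 6412 in WT cultures (-4.65 ± 0.54). Plin1, the fat cell perilipin that holds back basal lipolysis, had 926 in KO cultures and 19249 in WT cultures (-4.38 ± 0.47). For both, the KO channel was over an order of magnitude below the WT channel, with 6 genes having a lower ratio than Plin4 and 10 a lower ratio than Plin1.

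Cidea is the CIDE gene most tied to brown fat, where it aids droplet fusion. It had 178 in KO cultures and 1858 in WT cultures (-3.38 ± 0.44). Plin5, found in tissues that burn fat, tethers droplets to mitochondria. It had 164 in KO cultures and 983 in WT cultures (-2.58 ± 0.38). These were the dimmest KO spots of the family, with a mean signal 2.18 and 2.17 times the local background. The offset of 50 added before the logarithm draws such ratios towards 0, and without it Cidea had -4.00 and Plin5 -3.20.

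Plin2 and Plin3 belong to the widely expressed perilipins, PLIN3 being largely cytosolic until droplets form. Plin2 had 26006 in KO cultures and 55488 in WT cultures (-1.09 ± 0.23), just past 2-fold. Plin3 had 19465 in KO cultures and 23671 in WT cultures (-0.28 ± 0.20), under 2-fold. Both stayed bright in either genotype, unlike the other 5 members. In the order of ratios, the step of 1.49 from Plin5 to Plin2 and the step of 0.81 from Plin2 to Plin3 exceeded 2 combined errors, and the 4 steps among Cidec, Plin4, Plin1, Cidea and Plin5 did not.

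**Figure D1:**
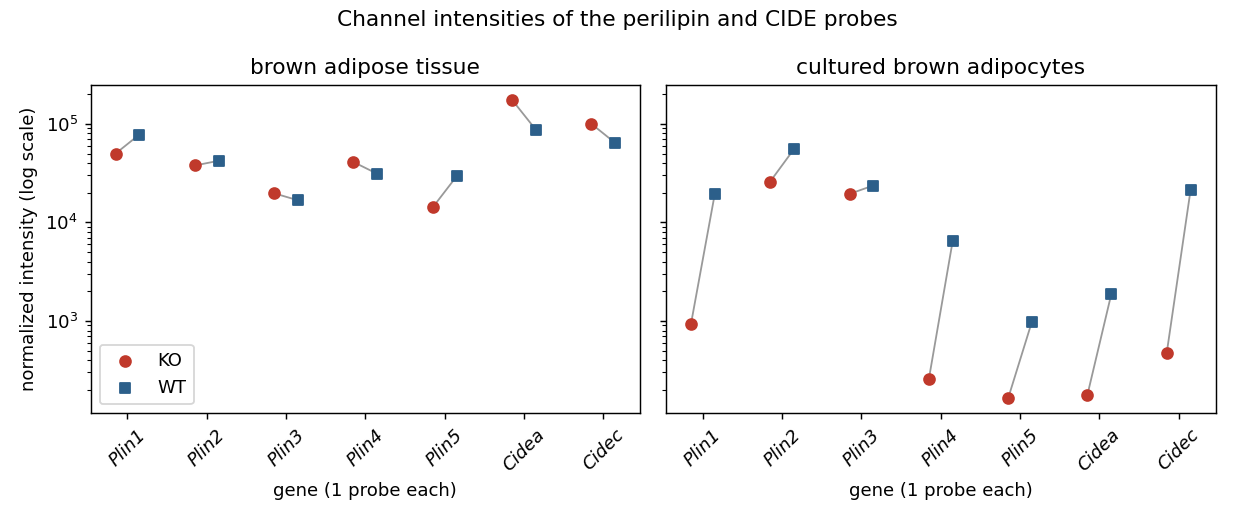
Normalized intensity (log axis) of each member's probe in KO (red circles) and WT (blue squares), on the BAT array at left and the adipocyte array at right, 1 spot per point. In cultures the KO points of Cidec, Plin4 and Plin1 lie at 474, 256 and 926 against WT points of 21121, 6412 and 19249, while those of Plin3 lie close together. Heights are comparable within a probe only.

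Other markers moved on the same array. Of 11 adipocyte markers, 11 were at least 2-fold lower in KO cultures, with a median of -3.47 and a summed intensity of 52436 in KO and 1023764 in WT. Of 12 brown fat markers 7 were at least 2-fold lower (median -1.31, summed intensity 22944 in KO and 38578 in WT). Of 14 macrophage markers 11 were at least 2-fold lower (median -1.36, summed intensity 187615 in KO and 719152 in WT), and all were above background. Of 12 preadipocyte and fibroblast markers 0 passed 2-fold (median 0.09). In bulk RNA fewer fat cells and less coat gene RNA per fat cell cannot be told apart, and the part of these markers in the members' ratios was not tested.

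In KO tissue 1 of 7 members was at least 2-fold higher and 1 lower, where the background over 15623 genes was 0.800% higher and 2.44% lower. The members' median was 0.23 and that of all genes 0.00. Cidea had a normalized intensity of 175197 in KO tissue and 87226 in WT tissue, a log2 ratio of 1.01 ± 0.21, and 122 genes had a higher ratio. Cidec had 100156 in KO tissue and 64090 in WT tissue (0.64 ± 0.21). Both CIDE genes were thus brighter in KO tissue, Cidea at the 2-fold line and Cidec under it.

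The perilipins divided. Plin5 had 14218 in KO tissue and 29277 in WT tissue (-1.04 ± 0.22), and Plin1 had 49876 in KO tissue and 77898 in WT tissue (-0.64 ± 0.22). Plin5 was the lowest member in KO tissue and lay just past the 2-fold line, with 346 genes below it, and Plin1 was under it. Plin2 had 37798 in KO tissue and 42199 in WT tissue (-0.16 ± 0.21). Plin3 had 19737 in KO tissue and 16774 in WT tissue (0.23 ± 0.20). Plin4 had 41007 in KO tissue and 31145 in WT tissue (0.40 ± 0.21). These last 3 were within 2 errors of 0, although the errors belong to Feature Extraction's own ratios. No step between neighbours in the order exceeded 2 combined errors, whereas the distance from Plin5 to Cidea, the 2 ends, was 2.05 with a combined error of 0.30.

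**Figure D2:**
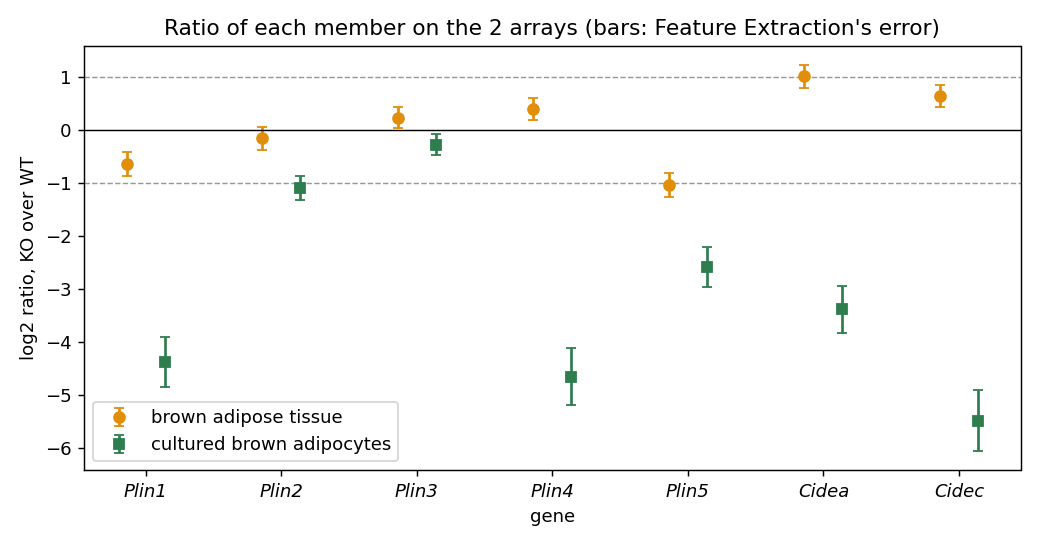
Log2 ratio of KO over WT for each member on the BAT array (orange circles) and the adipocyte array (green squares), 1 spot each, with bars for Feature Extraction's error of a single spot and dashed lines at 2-fold. On the BAT array the points run from -1.04 (Plin5) to 1.01 (Cidea), and on the adipocyte array from -5.48 (Cidec) to -0.28 (Plin3).

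The sign of most members in tissue depended on how the array was centred. Before any normalization all 7 ratios were above 0, from 0.32 for Plin5 to 2.54 for Cidea, and loess lowered them. Centred on the median without loess, 6 of 7 members were above 0, with Plin1 at 0.16, Cidea at 1.88 and Plin5 alone below 0 at -0.33 (the median of all genes was 0.25). With the ratios of Feature Extraction Cidea had 0.71, under 2-fold, and Plin5 -1.03. Feature Extraction's fit to the spiked-in control RNAs gave a KO over WT offset of 0.84 here, and with that shift removed all 7 members were below 0, with Cidea at -0.14 and Plin5 at -1.88 (the median of all genes was -0.77). The local background of Plin2, Plin4, Cidea and Cidec was marked as a population outlier in the KO channel.

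The order of the members was the same under the 4 alternatives that could change it, namely offset 0, Feature Extraction's ratios, no loess, and outlier spots kept in the background fit. From lowest to highest it was Plin5, Plin1, Plin2, Plin3, Plin4, Cidec and Cidea in tissue. Under those alternatives Cidea exceeded Plin5 by 1.74 to 2.21 and Cidec exceeded Plin1 by 1.23 to 1.31. In cultures the order was also the same under those alternatives, all 7 members were below 0, and Plin1 minus Plin3 ran from -4.25 to -4.08.

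**Figure D3:**
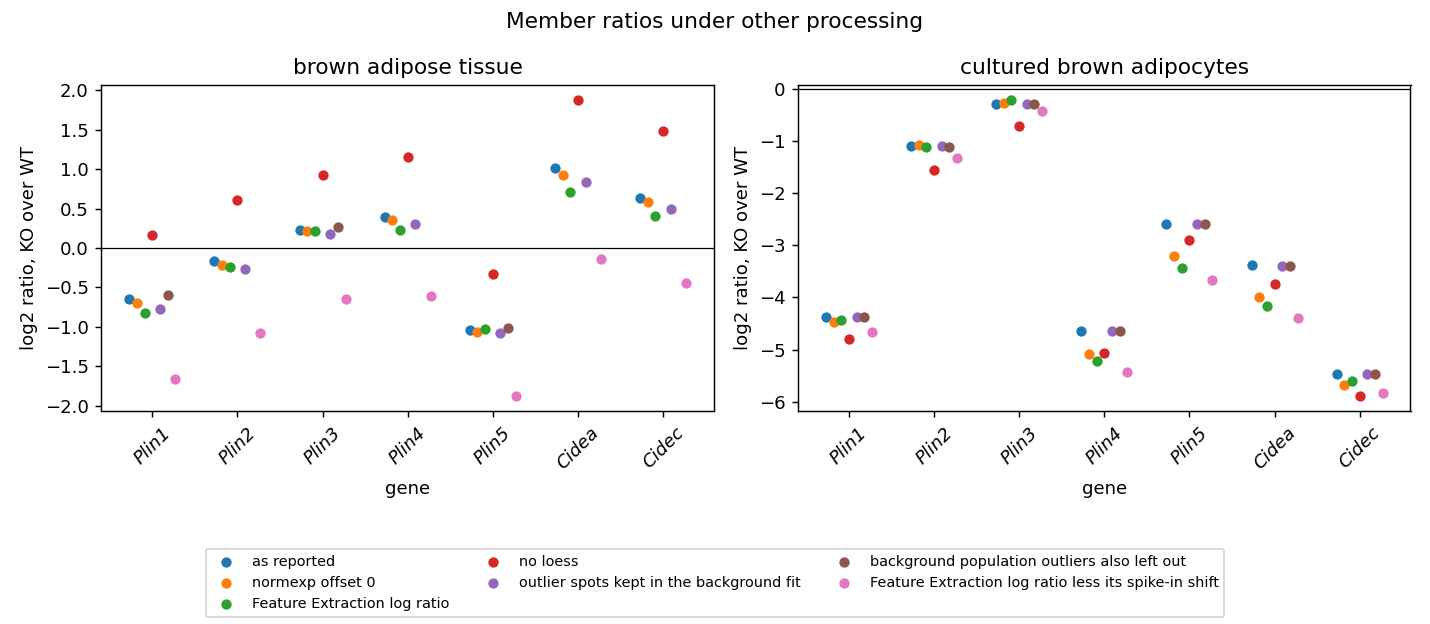
Log2 ratio of KO over WT of each member (colours: the values as reported and 6 other ways of processing), BAT array at left and adipocyte array at right, on different vertical scales. In tissue the points of 6 genes lie on both sides of 0, as for Cidea between -0.14 and 1.88, and those of Plin5 lie below it, and in cultures all points lie below 0. Members missing under a setting were left out by it.

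Plin5 is also made in skeletal muscle. Of 14 skeletal muscle markers 13 were at least 2-fold lower in KO tissue, with a median of -2.65 and a summed intensity of 72676 in KO and 421500 in WT, and the part of these markers in the ratio of Plin5 was not tested. Of 10 adipocyte markers kept in tissue 1 was at least 2-fold higher and 0 lower (median 0.01, summed intensity 879373 in KO and 655197 in WT), with Lep not above background. Of 12 brown fat markers 4 were at least 2-fold lower (median -0.37), among them Ucp1 (-1.84), the uncoupling protein. Of 14 macrophage markers 0 passed 2-fold (median -0.08).

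Set side by side, Plin3, Plin4, Cidea and Cidec had ratios above 0 in tissue and below 0 in cultures. The difference between the arrays, cultures minus tissue, was -6.12 for Cidec, -5.04 for Plin4, -4.39 for Cidea and -3.73 for Plin1. It was -1.54 for Plin5, -0.93 for Plin2 and -0.52 for Plin3. Cidea was 1 of 16 genes (0.112% of 14280 kept on both arrays) at least 2-fold higher in KO on the BAT array and at least 2-fold lower on the adipocyte array. Its tissue value of 1.01 was under 2-fold with offset 0 (0.93), with outlier spots kept in the background fit (0.84) and with Feature Extraction's ratios (0.71), and was -0.14 with the spike-in shift removed.

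**Figure D4:**
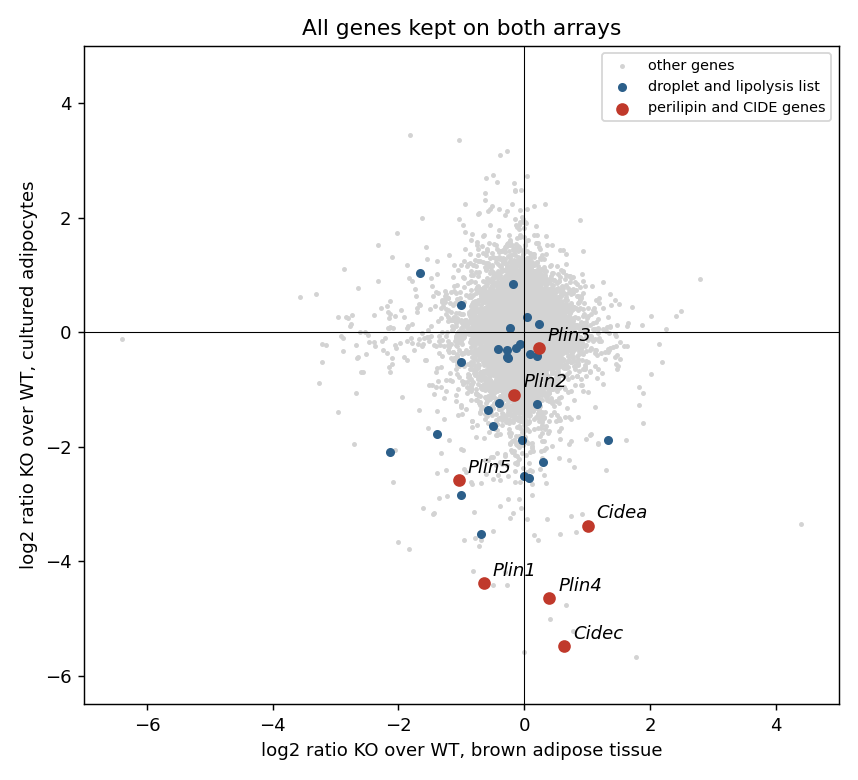
Log2 ratio of KO over WT on the BAT array (horizontal) and the adipocyte array (vertical) for the 14280 genes kept on both (grey), the droplet and lipolysis list (blue) and the members (red, named). Cidec, Plin4, Plin1, Cidea and Plin5 lie far below 0 on the vertical axis, while Plin2 and Plin3 lie nearer the cloud.

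Scaled across both arrays (Aquantile), a probe's 4 channels can be ordered, although dye and array differ between them. The 4 log2 levels of Cidec were 16.83 in KO tissue, 16.19 in WT tissue, 8.19 in KO cultures and 13.67 in WT cultures. For Cidea they were 17.51 in KO tissue, 16.50 in WT tissue, 6.91 in KO cultures and 10.29 in WT cultures. For Plin2 they were 15.57 in KO tissue, 15.73 in WT tissue, 14.20 in KO cultures and 15.29 in WT cultures. Both tissue levels exceeded both culture levels for all 7 members, narrowly for Plin2, and KO cultures were the lowest of the 4 for every member.

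Plin4, Plin5 and Plin3 lie near each other on chromosome 17. By the array's own annotation, whose build is not stated, the Plin4 probe covers 54259939 to 54259998, the Plin5 probe 54269931 to 54269990 and the Plin3 probe 54437255 to 54437314. The probes of Plin4 and Plin5 thus start 9.99 kb apart and those of Plin5 and Plin3 167 kb apart. In cultures the ratio of Plin4 was 2.06 below that of Plin5, with a combined error of 0.66, and in tissue it was 1.44 above it, with a combined error of 0.30. The other probes lie on chromosome 7 (Plin1, 75590467 to 75590526), chromosome 4 (Plin2, 86060498 to 86060557), chromosome 6 (Cidec, 113585627 to 113585686) and chromosome 18 (Cidea, 67759992 to 67760051).

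Other droplet and lipolysis genes were counted on the same arrays. Of the 30 measured in cultures, 13 were lower in KO by 2-fold or more and 1 was higher (median -0.44). The background over all genes was 4.17% lower and 2.49% higher. The lipases that the coat controls were among the lower genes, with Lipe (hormone-sensitive lipase) at -2.52 and Pnpla2 (adipose triglyceride lipase) at -2.27. Abhd5, the lipase activator that PLIN1 binds, had -1.24. Also lower were G0s2, the inhibitor of PNPLA2 (-2.10), Dgat2, which makes triglyceride (-2.84), Cav1, which codes for caveolin (-2.54), Pnpla3 (-3.52), Lpin1 (-1.88) and the droplet-forming gene Fitm2 (-1.88), whereas Fitm1 was higher (1.03). The CIDE gene of liver, Cideb, had 0.37 and was not well above background in both channels.

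Of the 29 measured in tissue, 5 were lower in KO by 2-fold or more and 1 was higher (median -0.26). The background over all genes was 2.44% lower and 0.800% higher. The 5 became 2 without loess and 17 after removal of the spike-in shift. The lower genes were G0s2 (-2.14), Fitm1 (-1.65), the acyltransferase gene Agpat2 (-1.38), the carboxylesterase gene Ces1d (-1.01) and the acyl-CoA synthetase gene Acsl3 (-1.01), and the higher one was Lpin1 (1.34), whose product makes diacylglycerol. Skeletal muscle markers were also lower in KO tissue, as given above, and their part in these ratios was not tested. Lipe had 0.00 and Pnpla2 0.30 there. These values in tissue, and those of Abhd5 and Cideb in cultures, were chosen after they were seen.

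The genes whose pair of ratios lay nearest to a member were sought among 11087 other genes above background in all 4 channels, by Euclidean distance over the 2 arrays. The nearest to Cidec was Adipoq, the adiponectin gene (0.77 in tissue and -5.22 in cultures, distance 0.29), followed by Car3 and Fabp4. Nearest to Cidea were Pparg, the fat cell regulator (0.82 and -3.49, distance 0.22), Angptl4 and Clec10a. Nearest to Plin1 were Rgcc (-0.62 and -4.39, distance 0.03), Mrap and Lgals12, and nearest to Plin5 were Srebf1 (-0.92 and -2.45, distance 0.18), A530016L24Rik and Rxrg. With 2 values per gene this likeness is a description only.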

How the data were processed

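RNA was extracted with Trizol and labelled with Agilent's low input linear amplification kit, per the labels' protocols. The deposited files came from Agilent Feature Extraction 9.5.1.1, per the file headers, and give for every spot an intensity per dye with its local background. They also give, per the file headers, a log10 ratio (Cy5 over Cy3) and its error. The authors' deposited value table holds the same log10 ratios as KO over WT, within 0.017 on the log2 scale. A second deposited copy of each array agreed within 0.496% and was used only for that check.

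Ratios were computed with limma 3.58.1 in R 4.3.3. Spots flagged as non-uniform, as a population outlier, or with a non-uniform background (1215 of 43379 gene spots on the BAT array, 203 on the adipocyte array) were left out, a choice of flags made after the files were seen. Background was corrected with normexp (saddle, offset 50) and each array normalized by loess, with weight 0 for 1639 control spots. Probes well above background in at least 1 channel were kept and averaged per gene. The genes were named from the RefSeq table of GRCm38.p6 (8455 probes unmatched). Feature Extraction's extended range reads bright spots from a second scan at lower gain. That scan gave all 7 member signals in KO tissue and 4 in WT tissue, and 0 in KO and 4 in WT cultures. KO and WT signals thus came from different scans for Plin3, Plin4 and Plin5 in tissue. In cultures this held for Plin1, Plin2, Plin3 and Cidec. The part of the unlike scans in these ratios was not tested.

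The steps were run on simulated data whose planted changes were smaller than those of Cidec, Plin4, Plin1 and Cidea in cultures. The outcome of that run is not given here. Recovery of changes as large as theirs, or under a dye trend that is not linear in log intensity, was not tested. Precision is limited by 1 array per comparison. Members, lists and the rule for named genes (all members, Prkg1, the largest differences in the droplet list, and the nearest genes) were chosen with earlier results of these data known. Of 5 hepatocyte markers on the array 2 were kept in tissue (median -0.57) and 0 in cultures. Of 12 preadipocyte markers in tissue (median 0.10) and 12 skeletal muscle markers in cultures (median -0.13), 0 and 1 passed 2-fold. Alternatives changed the offset, loess, the outlier and dim probe filters, the probe taken per gene, the fold threshold and the source of the ratios.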

Additional observations from a re-analysis of the deposited data

Results flagged for a closer look

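Members whose ratio of KO over WT had opposite signs on the 2 arrays were picked out. Each side rests on 1 array, and the difference between arrays was not tested. Cidea had 1.01 in tissue and -3.38 in cultures. Cidec had 0.64 in tissue and -5.48 in cultures. For Plin4 the values were 0.40 in tissue and -4.65 in cultures, and for Plin3 they were 0.23 in tissue and -0.28 in cultures. The tissue signs of all 4 turned when Feature Extraction's spike-in shift was removed, as given above for Cidea. The median of all genes was then -0.77, and all 4 stayed above it.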

How the results depend on the processing

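No paired analysis was possible because each comparison has 1 array, and no replicate could be left out. On the adipocyte array the counts of members, 6 lower and 0 higher, stayed within 1.5 times under the alternatives run. With 1 probe per member, above background in both channels, the filters on dim probes and the choice of probe could not move them, and the deposited table repeats Feature Extraction's ratios. On the BAT array, 1 member higher became 0 with offset 0, with Feature Extraction's ratios, with the deposited value table, with outlier spots kept in the background fit, with background population outliers also left out (which left 3 members), after removal of the spike-in shift and at 3-fold. It became 3 without loess and 2 at 1.5-fold. The 1 lower became 0 without loess and at 3-fold, 2 at 1.5-fold and 3 without the spike-in shift. In the droplet list on the BAT array, the 5 lower became 2 without loess, with outlier spots kept and at 3-fold, 8 at 1.5-fold and 17 after removal of the spike-in shift. Its 1 higher became 2 without loess, and 0 at 3-fold and after removal of the spike-in shift. On the adipocyte array its 1 higher became 2 with Feature Extraction's ratios, with the deposited table and at 1.5-fold, and 0 without loess and at 3-fold. Among single members, Cidea on the BAT array turned to -0.14 after removal of the spike-in shift. Over the alternatives tissue ratios ran from -1.66 to 0.16 for Plin1, -1.08 to 0.61 for Plin2, -0.64 to 0.93 for Plin3, -0.61 to 1.15 for Plin4, -1.88 to -0.33 for Plin5 and -0.44 to 1.48 for Cidec. In cultures they ran down to -4.79 for Plin1, -1.55 for Plin2, -0.71 for Plin3, -5.44 for Plin4, -3.66 for Plin5, -4.39 for Cidea and -5.90 for Cidec. Removing the spike-in shift and leaving out background population outliers were alternatives chosen after seeing the data. Without loess the median of all genes was 0.25 in tissue and -0.26 in cultures, and without the spike-in shift -0.77 and -0.17. Beyond the changes that a threshold, fewer spots or a common shift makes by construction, the cause was not tested.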
